A study of Mus musculus with 113 samples.

Results

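The genes described here encode the ion channels and transmitter receptors that give neurons their electrical activity, followed while mouse embryonic stem cells (mESCs) turned into neural cells. A gene was a member if its symbol fitted a naming pattern for the potassium (Kcn), sodium (Scn), calcium (Cacn) or HCN channel families. Patterns for the AMPA (Gria), kainate (Grik), NMDA (Grin), metabotropic glutamate (Grm), GABA-A (Gabr) or glycine (Glra, Glrb) receptor families counted too. This rule used names and no measured value, and it found 185 of the 23739 genes in the 4 deposited gene tables. Of these, 77 of 13541 genes stood in the SFEB population table, 85 of 13738 in the adherent monoculture table, 33 of 11449 in the single-cell table and 185 of 23107 in the E14 table; 31 members were in every table and 92 in the E14 table only. Both R1 population tables list only genes that reached about 1 FPKM (fragments per kilobase of transcript and mapped library size, a per-length scale on which genes can be compared) in some sample, the lowest maximum of any gene being 1.01 and 1.00 FPKM, so most members missing from them cannot be placed in time. One member, Kcnq1ot1, is a long noncoding RNA that overlaps the channel gene Kcnq1.

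Neural induction was followed by RNA-seq in wild-type R1 mESCs by 2 protocols, as SFEB culture (floating serum-free aggregates, replated onto a coated surface late in the course) and as adherent monoculture (cells in N2B27 medium on gelatin, also replated). SFEB populations were sampled in a first series of 14 time points from 0 to 142 h and in a parallel series of 8 time points from 0 to 216 h, the adherent culture at 15 time points from 0 to 216 h, and 64 single SFEB cells at the 8 hours of the parallel series, 8 cells each. In a separate experiment, wild-type (WT) E14 mESCs and E14 cells in which Fyn, a Src-family tyrosine kinase gene, had been cut with Cas9 and 2 guides (Fyn-KO) were sequenced at days 0 and 4 of neural induction, in 3 replicates per group, 12 libraries in all. Each population time point was 1 library, the Fyn-KO cells are treated here as 1 line, nothing states that the 8 cells of a time point came from more than 1 culture, and nothing states how the E14 replicates arose, so p-values measure only the spread between these samples. For a time course, that spread is the scatter of single libraries around the fitted line, misfit of the line included. The R1 cells had grown on feeders and were passaged once without them before induction.

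Voltage-gated sodium and calcium channels drive the action potential and calcium entry, and potassium channels set the resting potential and end each spike. AMPA, kainate and NMDA receptors are cation channels opened by glutamate, GABA-A and glycine receptors are chloride channels, and metabotropic glutamate receptors signal through G proteins. Each channel is built around pore-forming subunits whose amounts and gating are tuned by accessory subunits, and immature neural cells use many of these proteins before synapses form.

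The libraries carried the marks of differentiation, together with signs of other cells at the start. The summed level of 5 progenitor markers ran from 26.4 to 669.9 FPKM in the first SFEB series, from 16 to 856 in the parallel series and from 17 to 428.5 in the adherent series, and the 6 measured neuron markers reached 626, 927 and 952 FPKM in the last samples. The 10 fibroblast (feeder) markers summed to 1199.7, 1245 and 847 FPKM at 0 h and to 29.4 to 176 FPKM in the samples from 20 h on, apart from 422.5 FPKM in the adherent 144 h sample. In the E14 libraries the same 10 markers summed to 0.726 to 27.8 FPKM. Fyn was at 2.74 to 4.00 FPKM in WT day 0 libraries against 0.598 to 1.10 FPKM in Fyn-KO, and at 4.54 to 9.44 against 1.13 to 1.58 FPKM at day 4, a log2 difference of −1.74 ± 0.24 (SE; limma, adjusted p = 0.0193). In bulk libraries, fewer cells of a type and less RNA per cell cannot be told apart.

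A larger share of ion channel and receptor genes than of all genes came on, or came back on, after the start of neural induction. A gene was called on from the first time after which it stayed at 1 FPKM or more to the end of its series. In the first SFEB series 46 of 77 members (59.7%) came on after 0 h, 15 (19.5%) were on from 0 h and 16 (20.8%) were lost, meaning that they reached 1 FPKM and had dropped below it by the last sample. Over all 13541 genes of that table the shares were 14.1%, 73.5% and 12.3%. The parallel series gave 46 later, 18 from the start and 13 lost of 77 members, and the adherent series 48, 17 and 20 of 85, with later onset in 13.6% and 17.3% of all genes. Some of these onsets were returns, of genes that were at 1 FPKM or more at 0 h and dipped: 13 of the 46 in the first series, 11 of 46 in the parallel and 7 of 48 in the adherent series. Members below 1 FPKM at 0 h that came on later were 42.9%, 45.5% and 48.2% of members, against 6.83%, 8.13% and 11.2% of all genes. The population tables hold only genes that reached about 1 FPKM, so nearly every gene below it at 0 h had to come on later or be lost. The contrast thus restates in large part how many members started low. The number of members at 1 FPKM or more went from 38 at 0 h through 32 at 8 and 22 h to 61 at 142 h in the first series, from 37 through 26 at 9 h to 64 at 216 h in the parallel series, and from 27 to 65 in the adherent series. Over all 13541 genes, the first series went from 12208 through 11868 and 11657 to 11869 at these hours. The parallel series went from 12120 through 11657 to 12175, and the adherent series from 11331 to 12084 of 13738 genes.

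A slope of log2(FPKM + 1) on time, fitted by limma across all genes with a term for the series, rose in 52 and fell in 12 of the 77 members in SFEB culture. The background was 35.8% of all genes rising and 27.3% falling, 63.1% in either direction. The median slope of the members was 0.55 log2 units per 100 h against 0.05 for all 13523 genes tested. In adherent culture 46 of the 67 members tested rose and 7 fell, against 36.1% of all genes rising and 24% falling (60.1% together) and a median slope of 0.63 against 0.09. The other members of that table were below 1 FPKM in all but 1 sample. With a curved fit (a natural spline of time, chosen after the data were seen), 76 of 77 and 62 of 67 members changed over time, where 87.9% and 70.8% of all genes did.

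**Figure D1:**
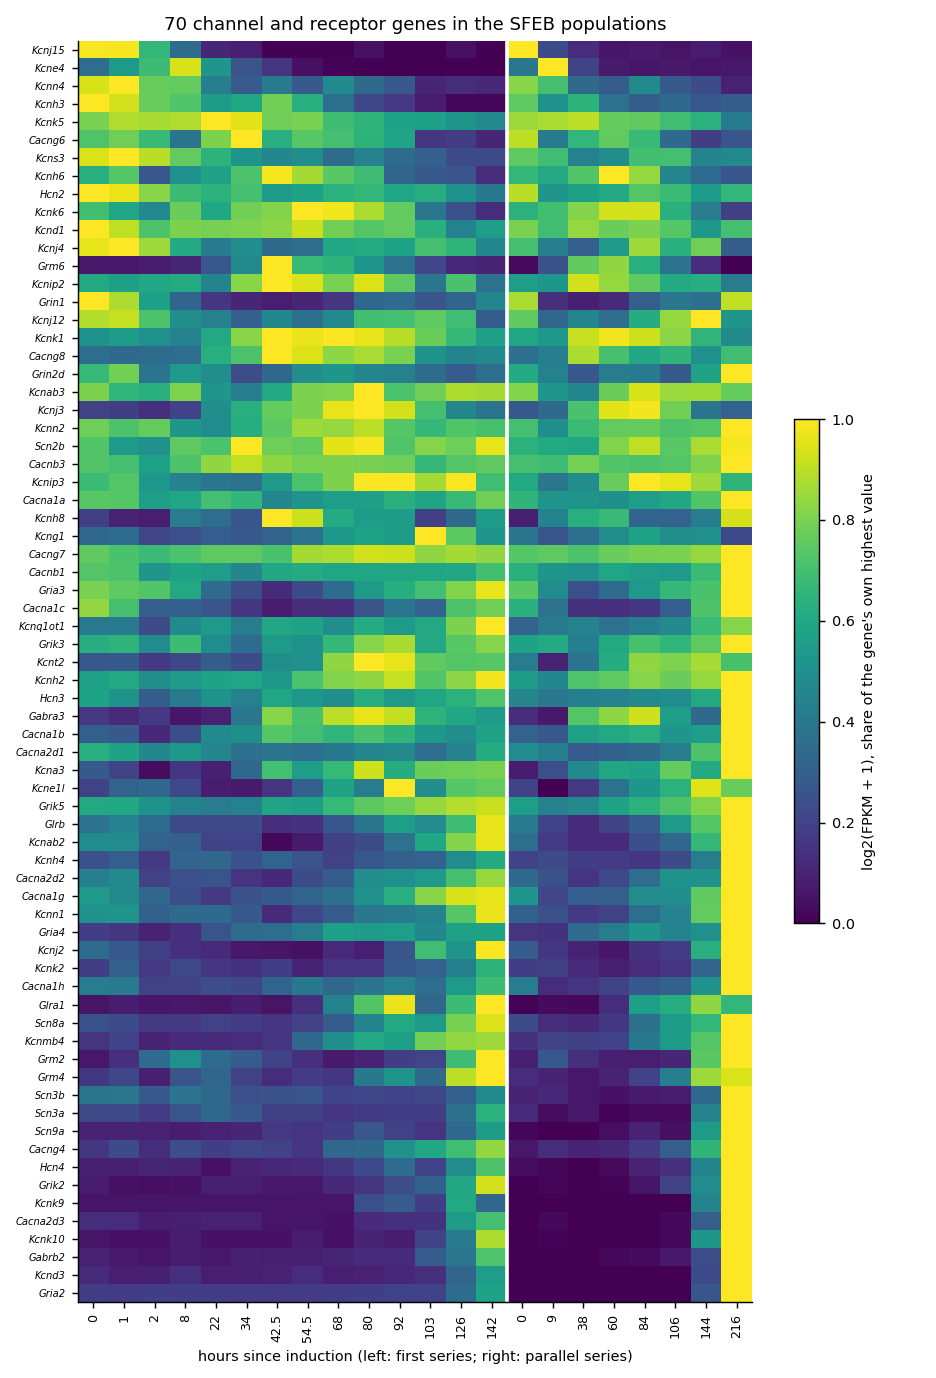
Each of 70 SFEB members is a row and each SFEB library a column, with hours of neural induction on the x axis of both series; colour is log2(FPKM + 1) as a share of that gene's own highest value. Rows run from genes with their level early to genes with it late, and the late block is the larger, in keeping with 46 of 77 members coming on or back on after 0 h.

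A smaller set of channel genes was high early in the R1 series and fell. Kcnk5 (TASK-2), a two-pore potassium channel sensitive to extracellular pH, was among them. Its SFEB level was 13.5 FPKM at 0 h, peaked at 27.3 FPKM at 22 h and ended at 3.83 FPKM, and in adherent culture it held between 22.3 and 27.5 FPKM through 41.5 h before dropping to 9.55 FPKM at 68.5 h and 5.46 FPKM at 216 h. Its slopes were −1.26 ± 0.13 (SE; limma, adjusted p = 4.42e-08) in SFEB and −1.37 ± 0.19 log2 units per 100 h in adherent culture (adjusted p = 1.74e-05). Its level was thus kept for the first day and more, and dropped between 34 and 42.5 h in the first SFEB series and after 41.5 h in adherent culture. In E14 cells it was at 6.23, 11.2 and 8.00 FPKM at day 0 and 9.86, 19.5 and 12.8 FPKM at day 4 in WT, and at 5.44, 5.10 and 10.3 and then 8.47, 20.7 and 11.1 FPKM in Fyn-KO, with overlapping groups, differences of 0.65 ± 0.35 and 0.83 ± 0.35 on the log2 scale and no call (limma, adjusted p = 0.198 and 0.120).

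Most other falling members were potassium channel genes. Kcnh3, an ether-a-go-go type channel, went from 3.24 to 0.0185 FPKM over the first series (slope −0.85 ± 0.15), and Kcns3, a silent subunit that modifies other voltage-gated potassium channels, from 3.01 to 0.410 FPKM (−0.58 ± 0.13). Kcnn4, the intermediate-conductance calcium-activated channel, went from 1.74 to 0.128 FPKM (−0.62 ± 0.10). Kcnj15, an inward rectifier, went from 1.60 FPKM to 0.109 FPKM at 22 h and stayed below that in the first series (−0.53 ± 0.15), over the hours in which the fibroblast markers dropped. Whether those cells account for its early level was not tested. Kcne4, an accessory subunit that inhibits voltage-gated potassium channels, had a short pulse: 0.782 FPKM at 0 h, 3.57 FPKM at 8 h and 0.278 FPKM at 42.5 h, and in the parallel series 0.887, then 4.05 FPKM at 9 h and 0.395 FPKM at 38 h (−0.90 ± 0.20). Kcnk6, Kcnh6, Kcnd1, Hcn2 and Cacng6 had falls of −0.52, −0.37, −0.38, −0.42 and −0.56 log2 units per 100 h. Of the 64 members tested in both protocols, 9 fell in SFEB and 7 in adherent culture, and 7 fell in both, among them Kcnd1, Kcnh3, Kcnh6, Kcnk5, Kcnk6 and Kcns3. Without the samples before 20 h, where the fibroblast markers were high, the SFEB calls of Hcn2 and Kcnj15 and the adherent call of Kcns3 were lost (slopes −0.16, −0.05 and −0.40). With the parallel series fitted alone, the slopes of Kcns3 (−0.19), Hcn2 (−0.08), Kcnd1 (−0.17), Kcnj15 (−0.35), Kcnh6 (−0.34), Kcnh3 (−0.40), Cacng6 (−0.44), Kcnk6 (−0.53) and Kcne4 (−0.65) were negative and not called. With the first series alone, those of Kcnh6 and Kcnk6 (−0.40 and −0.51) were not called. Without the 216 h sample Kcnh6 and Kcnk6 were called in neither protocol (SFEB −0.36 and −0.42, adherent −0.21 and −0.36). In the parallel series Kcns3 went from 2.03 FPKM at 0 h through 0.910 FPKM at 38 h to 1.03 FPKM at 216 h.

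Several members rose and fell again within the course, and a straight slope misses them. Kcnk1 (TWIK-1), a weakly inward-rectifying two-pore potassium channel, was at 5.74 FPKM at 0 h and 4.21 FPKM at 8 h, climbed to 41.6 FPKM at 42.5 h, held 36.6 to 40.4 FPKM from 54.5 to 80 h and returned to 7.27 FPKM at 142 h. The parallel series passed through 8.14, 6.34, 30.2, 38.3, 30.8, 21.3, 10.9 and 5.02 FPKM at its 8 hours. Kcnj3 (GIRK1), an inward rectifier opened by G protein beta-gamma subunits, followed with its peak later: 0.762 FPKM at 0 h, 8.51 FPKM at 42.5 h, 18.2 FPKM at 80 h and 2.09 FPKM at 142 h, and in the parallel series 1.25 FPKM at 0 h, 17.3 FPKM at 84 h and 1.53 FPKM at 216 h. Each gene thus had a single wave in both SFEB series, with the peak of Kcnk1 at 42.5 h in the first and at 60 h in the more sparsely sampled parallel series. Timing was not tested. Their linear slopes of 0.18 ± 0.40 and 0.50 ± 0.47 did not pass the test (adjusted p = 0.72 and 0.363), while the spline fit gave 7.6e-09 and 9.8e-09. Without the samples before 20 h the slope of Kcnk1 was −1.28 (adjusted p = 0.00428).

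In adherent culture Kcnk1 rose and stayed, and Kcnj3 had a wave. Kcnk1 went from 3.22 FPKM at 0 h to 12.5 FPKM at 35.5 h, stayed between 13.6 and 17.4 FPKM from 41.5 to 144 h and was at 10.8 FPKM at 216 h, so its slope there was positive (0.86 ± 0.28, adjusted p = 0.0154; not called without the samples before 20 h). Kcnj3 peaked at 7.89 FPKM at 68.5 h and was at 1.59 FPKM at 216 h. The difference between protocols in height was not tested, since their tables were normalised separately. Smaller waves were seen in Grm6, a metabotropic glutamate receptor of retinal ON bipolar cells (0.111 FPKM at 0 h, 3.51 FPKM at 42.5 h and 0.163 FPKM at 142 h; adherent peak 4.54 FPKM at 53.5 h). Kcnip2, a calcium-binding partner of Kv4 channels, peaked at 3.19 FPKM at 42.5 h and Kcnk6 at 3.40 FPKM at 54.5 h. Cacng8, a TARP subunit that escorts AMPA receptors, was at 0.827 FPKM at 0 h, 4.26 FPKM at 42.5 h and 1.22 FPKM at 142 h. Gabra3, a GABA-A alpha subunit, was at or below 0.258 FPKM through 22 h, between 1.65 and 2.75 FPKM from 42.5 to 92 h and at 1.14 FPKM at 142 h, and its slope was called (0.72 ± 0.20), though not without the samples before 20 h (0.20).

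**Figure D2:**
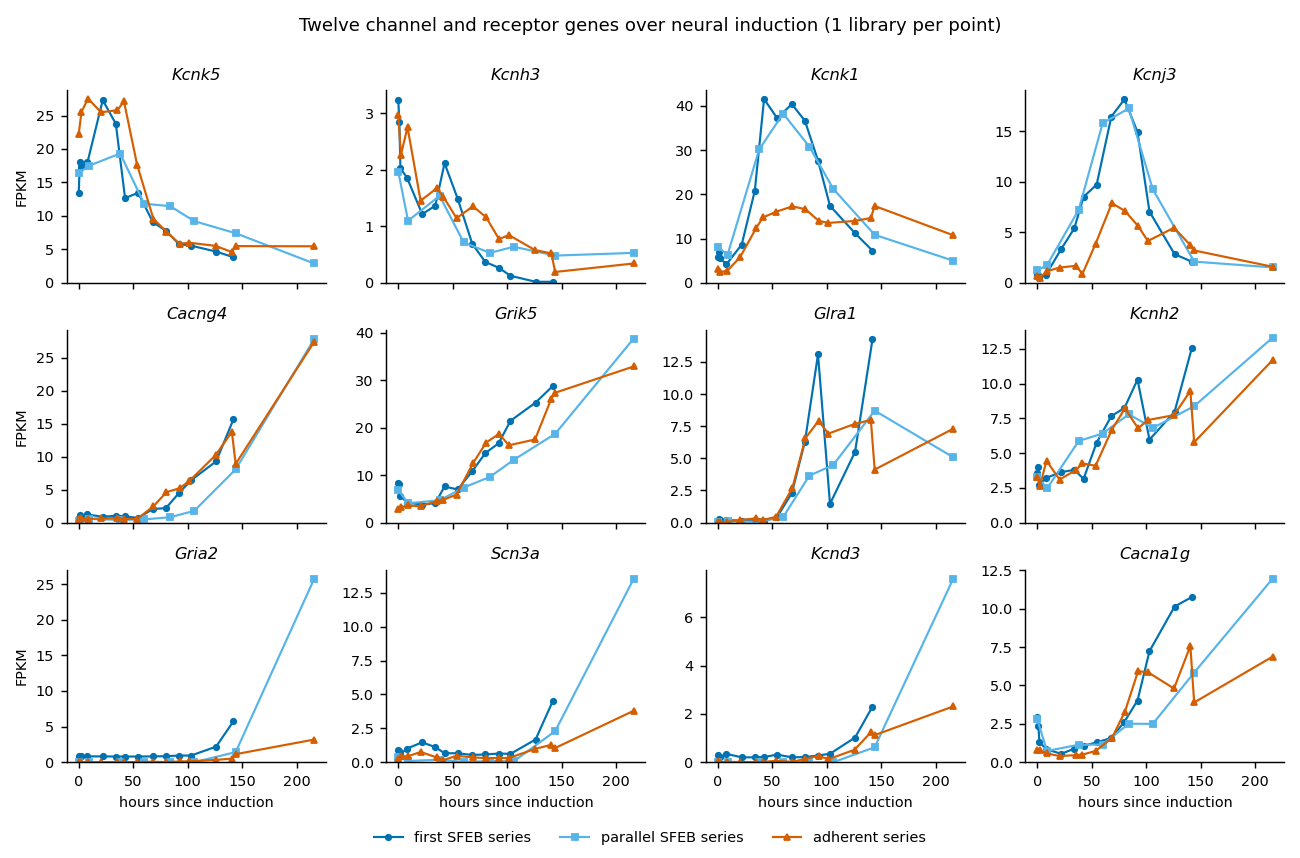
Levels of selected members in FPKM against hours of neural induction, with 1 point per library and 1 line per series (first SFEB, parallel SFEB, adherent). Kcnk5 and Kcnh3 start high and fall, Kcnk1 and Kcnj3 peak between 42.5 and 84 h in SFEB culture, and Gria2 and Scn3a are highest in the last samples.

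Promoter sequence is shown for members of these patterns whose start site is in the RefSeq table for GRCm38.p6, as the 250 bases before the start, 5′ to 3′ on the gene's strand. Capitals mark CG dinucleotides, except in Gria2, where they mark a match to RE1, the element bound by the repressor REST. Gria2 (AMPA receptor subunit, late onset) lies at chr3:80802836-80803085 on the minus strand, Kcnmb4 (rising BK channel subunit) at chr10:116473524-116473773 on the minus strand, Kcnj3 at chr2:55435720-55435969 and Kcnk1 at chr8:125994852-125995101 on the plus strand (mid-course waves), and Kcnk5 (falling) at chr14:20181783-20182032 on the minus strand.
Gria2: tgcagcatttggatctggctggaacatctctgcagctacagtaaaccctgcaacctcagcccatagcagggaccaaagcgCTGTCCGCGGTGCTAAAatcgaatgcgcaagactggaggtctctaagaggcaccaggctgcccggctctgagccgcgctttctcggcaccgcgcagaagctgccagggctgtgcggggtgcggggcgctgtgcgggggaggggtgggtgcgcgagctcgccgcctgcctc
Kcnmb4: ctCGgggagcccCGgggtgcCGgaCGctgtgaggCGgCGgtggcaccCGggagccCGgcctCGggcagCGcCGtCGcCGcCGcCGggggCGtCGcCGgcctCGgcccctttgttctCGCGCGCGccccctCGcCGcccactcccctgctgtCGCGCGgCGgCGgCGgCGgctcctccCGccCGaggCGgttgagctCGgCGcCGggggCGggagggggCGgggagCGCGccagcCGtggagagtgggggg
Kcnj3: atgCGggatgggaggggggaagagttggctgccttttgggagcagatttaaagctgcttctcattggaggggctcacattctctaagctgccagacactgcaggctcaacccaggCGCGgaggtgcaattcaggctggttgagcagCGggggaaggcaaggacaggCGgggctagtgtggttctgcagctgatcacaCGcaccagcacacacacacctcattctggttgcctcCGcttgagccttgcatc
Kcnk1: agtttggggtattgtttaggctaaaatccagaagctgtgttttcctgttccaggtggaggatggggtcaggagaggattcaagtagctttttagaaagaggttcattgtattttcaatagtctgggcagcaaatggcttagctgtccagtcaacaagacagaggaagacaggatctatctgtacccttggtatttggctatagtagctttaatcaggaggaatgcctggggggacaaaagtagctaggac
Kcnk5: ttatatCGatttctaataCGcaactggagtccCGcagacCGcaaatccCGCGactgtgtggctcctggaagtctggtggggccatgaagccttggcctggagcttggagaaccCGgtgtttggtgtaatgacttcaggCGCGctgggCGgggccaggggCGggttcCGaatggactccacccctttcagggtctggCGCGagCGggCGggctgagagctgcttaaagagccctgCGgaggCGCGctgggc

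The 5 promoters differ in CG content. Kcnmb4 has 43 CG dinucleotides and 83.6% GC in 250 bases, Gria2 and Kcnk5 each have 19 (64.8% and 62.8% GC), Kcnj3 has 7 (58.4%) and Kcnk1 has 0 (44.4%). The median over all 32851 promoters of the table was 6 CG dinucleotides, over the 176 promoters of the 134 members with an entry 8, over 49 promoters of 34 of the 52 rising SFEB members 14 (range 0 to 43), and over 9 promoters of 8 of the 12 falling members 8 (range 1 to 23). RE1, a motif of 17 letters of which 15 were compared, was searched on both strands. Gria2 held a copy with 1 mismatch on the opposite strand, at positions −170 to −154 from the start. Only 17 of all promoters (0.0517%) held 1 within that distance, and no other member did; within 3 mismatches there were 304 (0.925%), Kcnip3 among them. Such a match is a description of the letters, and no binding was measured.

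AMPA receptor subunits came on one after another. Gria4 passed 1 FPKM at 34 h in the first series, Gria3 returned above it at 68 h and Gria2 passed it at 126 h, and the order in the parallel series was 38, 60 and 144 h. In adherent culture the order of the first pair was exchanged: Gria3 at 53.5 h, Gria4 at 68.5 h and Gria2 at 144 h. Gria2, whose edited subunit makes AMPA receptors impermeable to calcium, was at 0.799 to 0.936 FPKM through 103 h in the first series, 2.18 FPKM at 126 h and 5.76 FPKM at 142 h. In the parallel series it was listed at or below 0 through 106 h, then at 1.42 FPKM at 144 h and 25.7 FPKM at 216 h, the highest level any AMPA subunit reached. The SFEB table had been batch-adjusted by the authors, which left Gria2 with a floor of 0.799 FPKM in one series and −0.480 in the other, so its early level is not known. Its slope was 1.42 ± 0.26 in SFEB (adjusted p = 6.94e-05) and 0.79 ± 0.13 log2 units per 100 h in adherent culture (adjusted p = 5.85e-05). Gria4 went from 0.521 to 2.77 FPKM in the first series and to 9.06 FPKM at 216 h in the parallel one (1.15 ± 0.11). Gria3 was at 4.14 FPKM at 0 h, 0.281 FPKM at 42.5 h and 6.20 FPKM at 142 h; its straight slope missed the test (0.55 ± 0.25, adjusted p = 0.0617), and without the samples before 20 h it was 1.50.

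The TARP and gamma subunits, of which several travel with AMPA receptors, differed widely in level. Cacng7 had the highest mean of any member in all 3 series and never dropped below 14.2 FPKM in SFEB culture, where it reached 40.7 FPKM at 80 h and 53.6 FPKM at 216 h (0.70 ± 0.11). Cacng4 had the steepest rise of all members in both protocols. It was at 0.710 FPKM at 0 h, 2.05 FPKM at 68 h and 15.7 FPKM at 142 h, and at 27.8 and 27.4 FPKM at 216 h in the parallel and adherent series, with slopes of 2.1 ± 0.18 (adjusted p = 3.91e-09) and 2.23 ± 0.17 (adjusted p = 7.30e-08). Cacng2 (stargazin) stood in the adherent and not the SFEB table, and was at or below 0.222 FPKM through 144 h and at 1.44 FPKM at 216 h.

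All 3 kainate subunits in the SFEB table rose, where 35.8% of all genes did. Grik5, an auxiliary-type kainate subunit that needs a partner to form a channel, was already at 8.31 FPKM at 0 h, dipped to 3.79 FPKM at 22 h and reached 28.8 FPKM at 142 h and 38.8 FPKM at 216 h (1.46 ± 0.15; adherent 1.73 ± 0.16, from 2.87 to 32.9 FPKM). Grik3 was on from 0 h in every series and went from 4.41 to 8.18 FPKM in the first (0.74 ± 0.16). Grik2, which does form channels by itself, came last: it was at or below 0.359 FPKM through 80 h, 2.44 FPKM at 126 h and 5.81 FPKM at 142 h (1.35 ± 0.16), and in adherent culture it reached 1.4 FPKM at 216 h only. Grik4 in adherent culture came on at 140.5 h. At the end of each series Grik5 stood above the other kainate genes by FPKM, a per-length scale.

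Grin1, the obligatory NMDA receptor subunit, dipped and returned in SFEB culture. Of the 7 Grin members 2 were in the SFEB table, and neither slope passed the test. Grin1 was at 4.48 FPKM at 0 h, 0.156 FPKM at 42.5 h and 1.18 FPKM at 142 h in the first series, and at 3.40, 0.162 (38 h) and 3.67 FPKM (216 h) in the parallel series. In adherent culture it was between 0.323 and 0.924 FPKM through 144 h and at 2.75 FPKM at 216 h, so the high 0 h level was seen in SFEB samples and not there. The straight slope was 0.02 ± 0.27 (adjusted p = 0.943), and without the samples before 20 h it was 0.92. Grin2d, a subunit typical of young neurons, was at 0.984 FPKM at 0 h and reached 1.77 FPKM at 216 h in the parallel series. Cacna1c (CaV1.2, an L-type calcium channel) had the same U shape as Grin1, with 1.32 FPKM at 0 h, 0.0780 FPKM at 42.5 h and 1.19 FPKM at 142 h.

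The metabotropic glutamate receptor genes Grm2 and Grm4 rose in both protocols, unlike Grm6 with its mid-course wave. Grm2, a Gi-coupled presynaptic receptor, was at 0.130 FPKM at 0 h, had a small early rise to 1.60 FPKM at 8 h, and reached 2.71 FPKM at 126 h and 5.69 FPKM at 142 h (0.94 ± 0.23; 0.75 and not called in the first series alone). It ended at 13.4 FPKM in adherent culture (1.55 ± 0.25). Grm4, another presynaptic receptor, went from 0.346 to 5.28 FPKM (1.24 ± 0.16) in the first series and from 0.668 to 8.03 FPKM in adherent culture (1.43 ± 0.15). Both came on at 126 h in the first series, while in adherent culture Grm2 came on at 92.5 h and Grm4 at 68.5 h.

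All 4 GABA-A subunits in the SFEB table rose, against 35.8% of all genes. Gabra3, described above, came on at 42.5 h in the first series but at 216 h in the parallel one, where its slope alone was not called (0.56; limma, adjusted p = 0.130), and in adherent culture it passed 1 FPKM at 68.5 h and ended at 0.830 FPKM. Gabrb2, a beta subunit of many adult receptors, was at or below 0.294 FPKM through 92 h and reached 3.57 FPKM at 142 h and 7.13 FPKM at 216 h (1.10 ± 0.16).

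Of the glycine receptor genes, Glra1 was among the steepest risers and Glrb rose less. Glra1, an alpha subunit, was at 0.150 FPKM at 0 h, 2.30 FPKM at 68 h and 13.1 FPKM at 92 h. It then stood at 1.45 FPKM at 103 h before 5.5 and 14.3 FPKM at 126 and 142 h, a single low library in the first series. The parallel series had no such drop (3.65, 4.48, 8.71 and 5.08 FPKM from 84 to 216 h), nor did the adherent series (6.57 to 7.99 FPKM from 80.5 to 140.5 h). The slopes were 2.02 ± 0.29 (adjusted p = 2.95e-06) and 1.90 ± 0.30 (adjusted p = 4.61e-05). Glrb, the beta subunit that anchors the receptor at synapses, went from 0.785 through 0.224 FPKM at 42.5 h to 3.33 FPKM at 142 h (0.77 ± 0.14; adherent 0.68 ± 0.11). Glra2, the main fetal alpha subunit, stood in the adherent and not the SFEB table, and it peaked at 1.48 FPKM at 80.5 h and was below 1 FPKM at the end.

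All 3 sodium channel alpha members in the SFEB table rose (35.8% of all genes did), Scn8a first. Scn8a (NaV1.6) went from 0.587 FPKM at 0 h through 1.29 FPKM at 80 h to 4.72 FPKM at 142 h (1.19 ± 0.12, adjusted p = 2.08e-08), and in adherent culture from 0.344 to 4.36 FPKM (1.13 ± 0.11). Scn3a (NaV1.3), an embryonic form, was at 0.534 to 1.47 FPKM through 103 h, 1.68 FPKM at 126 h and 4.55 FPKM at 142 h, and in the parallel series at 0.379 FPKM or less through 106 h, 2.30 FPKM at 144 h and 13.5 FPKM at 216 h (1.06 ± 0.24). Scn9a (NaV1.7) reached 1.46 FPKM at 142 h and 4.13 FPKM at 216 h. The accessory Scn3b went from 0.346 FPKM at 0 h to 18.8 FPKM at 216 h in the parallel series and from 1.06 to 12.8 FPKM in adherent culture. In the first series it was at 2.16 FPKM at 0 h, 0.813 FPKM at 92 h and 3.17 FPKM at 142 h, and the slope of 0.84 ± 0.27 turned to −0.09 there when that series was fitted alone, where the slope of Scn3a (0.47) was not called either. Without the 216 h sample the slope of Scn3b was 0.11 and not called.

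Calcium channel pores differed in when they came on. Cacna1a (CaV2.1, P/Q-type) was on from 0 h in every series, at 4.14 FPKM at 0 h, 1.75 FPKM at 42.5 h and 4.64 FPKM at 142 h in the first. Cacna1b (CaV2.2, N-type) came on at 22, 38 and 35.5 h in the 3 series and was at 3.90 FPKM by 42.5 h (0.80 ± 0.17; 0.35 and not called without the samples before 20 h). The T-type channels, which open near rest, had steeper slopes than Cacna1b. Cacna1g came on at 42.5, 38 and 68.5 h in the 3 series and Cacna1h at 42.5, 84 and 68.5 h. Cacna1g was at 2.97 FPKM at 0 h, 0.549 FPKM at 22 h, 4.02 FPKM at 92 h and 10.8 FPKM at 142 h (1.36 ± 0.21, adherent 1.43 ± 0.21). Cacna1h was at 2.05 FPKM at 0 h, 0.686 FPKM at 2 h and 5.11 FPKM at 142 h, and at 13.02 FPKM at 216 h in the parallel series (1.03 ± 0.18; adherent 1.28 ± 0.10). The 0 h levels of both were lower in adherent culture, at 0.825 and 0.328 FPKM. Accessory subunits varied likewise. The intracellular Cacnb3 was on throughout, between 6.63 and 23.6 FPKM in the first series, and its SFEB slope of 0.37 ± 0.15 was not called without the samples before 20 h (0.15), without the 216 h sample (0.15) or in the first series alone (0.09). Cacnb1 was on throughout too and reached 17.8 FPKM at 216 h in the parallel series. Of the alpha2delta subunits, a family that holds the targets of gabapentin, Cacna2d1 was at 4.94 FPKM at 0 h and 4.78 FPKM at 142 h in the first series, where its slope alone was −0.12, and at 2.96 and 16.1 FPKM at 0 and 216 h in the parallel series. Cacna2d2 went from 1.397 through 0.257 to 4.54 FPKM (0.96 ± 0.16), and Cacna2d3 was at 0.341 FPKM or less through 103 h and then at 2.01 and 3.15 FPKM (1.05 ± 0.18). Without the 216 h sample the SFEB slopes of Cacna1a, Cacnb1 and Cacna2d1 were 0.12, 0.09 and 0.12 and were not called.

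Among voltage-gated potassium members, 10 of the 15 in the SFEB table rose and 4 fell, where 35.8% of all genes rose and 27.3% fell. Kcnh2 (ERG1), a delayed rectifier of the heart and brain, was on from 0 h at 3.58 FPKM and reached 12.6 FPKM at 142 h (0.95 ± 0.11). Kcnd3 (KV4.3), which carries A-type current, was at 0.350 FPKM or less through 103 h and then at 1.02 and 2.30 FPKM, with 7.59 FPKM at 216 h (0.95 ± 0.18). Kcnc1 (KV3.1), a channel of fast-spiking neurons, stood in the adherent and not the SFEB table, and it went from 0.0171 to 3.50 FPKM (1.00 ± 0.07). Kcnh4, Kcna3, Kcng1 and the noncoding Kcnq1ot1 rose as well in SFEB culture. Of these, Kcng1 was not called without the samples before 20 h (0.27), and its slope was −0.03 when the parallel series was fitted alone. Among accessory subunits, Kcnmb4, the neuronal beta subunit of BK channels, rose most, from 0.389 FPKM at 0 h through 1.04 FPKM at 54.5 h to 5.08 FPKM at 142 h (1.50 ± 0.12, adjusted p = 1.10e-09; adherent 1.37 ± 0.14). Kcnn1, a small-conductance calcium-activated channel, went from 2.15 through 0.308 FPKM at 42.5 h to 7.83 FPKM at 142 h (1.04 ± 0.20), in contrast with its relative Kcnn4.

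Two-pore channels followed each other in time in SFEB culture. There Kcnk5 was high first, Kcnk1 in the middle, and Kcnk9, Kcnk10 and Kcnk2 at the end. Kcnk9 (TASK-3), an acid-sensitive background channel, was at its floor of 0.0946 FPKM through 68 h in the first series, reached 1.71 FPKM at 126 h and was at 0.718 FPKM at 142 h; it was at 4.17 FPKM at 216 h in the parallel series and 3.65 FPKM in the adherent one (0.87 ± 0.13 and 1.16 ± 0.10). Kcnk10 (TREK-2), a mechanosensitive channel, was at 0.398 FPKM or less through 103 h, 0.948 FPKM at 126 h and 3.19 FPKM at 142 h (0.96 ± 0.15). Kcnk2 (TREK-1) reached 1.4 FPKM at 142 h and 2.87 FPKM at 216 h (0.53 ± 0.11). The pacemaker channel genes divided as well: Hcn2 was at 7.39 FPKM at 0 h and 1.37 FPKM at 142 h in the first series, with no called slope in adherent culture (0.01 ± 0.10), Hcn3 went from 2.54 to 3.86 FPKM (0.65 ± 0.11), and Hcn4, the sinus-node form, from 0.173 to 2.63 FPKM (1.02 ± 0.12).

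Onset times were spread within and between families, and no difference between families was tested. Members coming on after 0 h did so at a median of 103 h in the first SFEB series, 144 h in the sparser parallel series and 97 h in adherent culture. In the first series the family medians were 42.5 h for calcium channel pores, 45.0 h for TARPs, 68 h for AMPA, 80 h for glycine, 84.3 h for GABA-A, 103 h for voltage-gated potassium channels, 126 h for sodium channel alpha subunits and metabotropic glutamate receptors, and 142 h for NMDA receptors, from 1 to 7 genes each. Several of these were returns of genes that were above 1 FPKM at 0 h, among them Grin1, the single NMDA gene, Gria3, and the pores Cacna1g, Cacna1h and Cacna1c. The order was not the same in the other series: the GABA-A median was 216 h in the parallel and 135 h in the adherent series, and the adherent medians of metabotropic receptors and sodium channel alpha subunits were 80.5 and 104.5 h. Both calcium channel beta subunits in the SFEB table were on from 0 h. At 126 h of the first series 14 members came on together, among them Gria2, Grik2, Grm2, Grm4, Gabrb2, Scn3a, Scn3b, Hcn4, Kcnd3 and Cacna2d3. In adherent culture 11 came on at 68.5 h, among them Cacna1g, Cacna1h, Cacng4, Glra1, Gria4, Grm4, Kcnmb4, Kcnn1 and Scn8a. Onset rested on the last sample alone for 7, 13 and 11 members of the first, parallel and adherent series. Batch adjustment left unlike floors in the SFEB series, which bears on a fixed cutoff of 1 FPKM. The lowest value was higher by over 0.5 FPKM in the first series for 5 members and in the parallel series for 11. Among the 5 were Gria2, Scn3b (0.813 against 0.154 FPKM) and Scn3a (0.534 against 0.0220 FPKM). The part of these floors in the onset times was not tested.

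**Figure D3:**
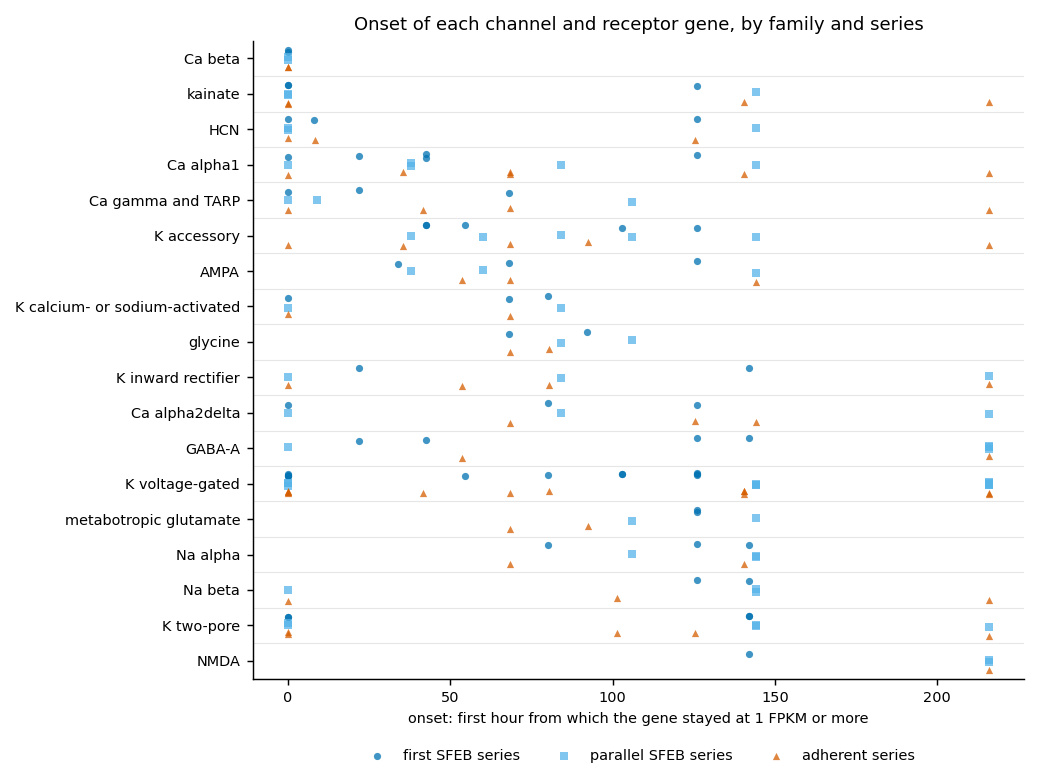
Onset in hours (x axis) of each member that was on at the end of a series, by channel or receptor family (y axis), with 1 point per gene and series and genes on from the start at 0 h. Calcium channel beta subunits lie at 0 h, and NMDA and two-pore members reach the last sample of each series, with a median later onset of 126 h for sodium alpha subunits in the first SFEB series.

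Most members were sorted alike in the 2 protocols, as were most other genes. Of the 70 members in both population tables, 51 (72.9%) fell in the same class in all 3 series, against 85.5% of the 13186 genes in both tables: 32 came on later, 13 were on from 0 h and 6 were lost. Among the 13 were Cacna1a, Cacnb1, Cacnb3, Cacng7, Grik3, Grik5, Hcn2, Kcnd1, Kcnh2, Kcnk1, Kcnk5 and Kcnn2, and the 6 were Cacng6, Grm6, Kcnh3, Kcnh6, Kcnk6 and Kcnn4. For the 32, onset in the first SFEB and adherent series differed by a median of 15.5 h, and by at most 24 h in 19 genes. The largest gaps were adherent onset later for Grik2 and Kcnh4 (216 against 126 h) and earlier for Grm4 (68.5 against 126 h). Of the 64 members tested for trend in both, 45 rose in SFEB, 43 in adherent culture and 39 in both (86.7% and 90.7% of each list, against 81.1% and 81.2% for all genes), and 0 were called in opposite directions, against 26 of 12948 genes. At matched hours, members differed between the 142 h and 144 h SFEB samples by a median of 0.42 log2 units, against 0.27 for all genes, and between the 0 h samples by 0.17 for both.

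Day 4 of induction raised a smaller set of members in E14 cells. Only 42 of the 185 members reached 1 FPKM in at least 3 of the 12 libraries and were tested; 117 of the 143 others never reached 1 FPKM and 11 were at 0 in every library. A gene that passed only through the group in which it was high had to differ, so the counts describe those tested. The number of members at 1 FPKM or more was 20, 20 and 21 in WT day 0 libraries, 39, 29 and 37 in WT day 4, 19, 19 and 28 in Fyn-KO day 0, and 31, 40 and 43 in Fyn-KO day 4. At day 4 in WT cells, 10 members were higher and 4 lower (15.5% and 10.3% of all 12257 genes, 25.8% together), with a median log2 change of 0.49 against 0.08 for all genes. In Fyn-KO cells 13 were higher and 1 lower (11.8% and 7.56% of all genes, 19.3% together), with a median of 0.66 against 0.05. The day 4 libraries lay wholly above the day 0 libraries for 24 members in WT and 18 in Fyn-KO (25.8% and 21.9% of all genes), and wholly below for 5 and 5 (16.4% and 16.8%).

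Kcnk1, Kcnj3 and Cacng7 had the largest log2 rises among the E14 members tested, in both lines. Kcnk1 was at 3.67, 4.12 and 3.87 FPKM in WT day 0 and at 10.3, 26.4 and 26.0 FPKM in WT day 4. In Fyn-KO it was at 1.03, 0.916 and 2.99 FPKM at day 0 and 21.0, 26.9 and 35.2 FPKM at day 4. The groups did not overlap in either line, and the log2 changes were 2.05 ± 0.36 (SE, n = 3; limma, adjusted p = 0.00251) and 3.49 ± 0.36 (adjusted p = 0.000238). Kcnj3 went from 1.02, 0.680 and 0.439 to 10.7, 2.94 and 12.9 FPKM in WT (2.35 ± 0.49, adjusted p = 0.00624) and from 0.444, 0.111 and 0.331 to 10.4, 3.36 and 14.2 FPKM in Fyn-KO (2.82 ± 0.49, adjusted p = 0.00366). Replicate 2 was the lowest of the 3 day 4 libraries in both lines. Cacng7 went from 4.95, 1.17 and 0.858 to 19.2, 16 and 23.6 FPKM in WT (2.82 ± 0.51, adjusted p = 0.00299) and from 3.95, 1.57 and 10.3 to 20.5, 23.7 and 33.3 FPKM in Fyn-KO (2.33 ± 0.51, adjusted p = 0.00987).

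Other rises were of receptor, calcium channel and potassium channel genes. Grik5 went from 1.79, 1.52 and 1.95 to 17.5, 6.02 and 8.52 FPKM in WT (1.97 ± 0.34) and from 1.84, 1.94 and 2.79 to 6.35, 5.78 and 12.8 FPKM in Fyn-KO (1.48 ± 0.34). Gabra3 was listed at 0, 0.0115 and 0 FPKM in WT day 0 and at 2.88, 1.28 and 2.00 FPKM at day 4 (1.57 ± 0.27), and in Fyn-KO it was listed at 0 in all 3 day 0 libraries and at 1.14, 1.16 and 2.78 FPKM at day 4. Cacna1b, the N-type channel, went from 0.0527, 0.0515 and 0.0755 to 1.82, 1.12 and 1.83 FPKM in WT (1.28 ± 0.23) and from 0.0491, 0.00760 and 0.462 to 1.69, 2.81 and 2.26 FPKM in Fyn-KO (1.48 ± 0.23). WT alone gave calls for Cacng8 (1.39 ± 0.32), Gria3 (1.37 ± 0.35, from at most 0.0370 to 3.85, 1.10 and 0.778 FPKM) and Kcnt2, a sodium-activated potassium channel (0.97 ± 0.29). Fyn-KO alone gave calls for Kcnh8 (1.65 ± 0.28), Kcng3 (1.54 ± 0.29), Kcnh6 (1.13 ± 0.28), Gria4 (1.12 ± 0.29), Cacna2d1 (0.99 ± 0.22) and Cacnb3 (1.27 ± 0.40, from a mean of 6.01 to 15.6 FPKM, groups overlapping). Many of these calls rested on single libraries. In WT, Kcnt2 was not called on leaving out any 1 of 5 of the WT libraries (limma, adjusted p = 0.0524 to 0.0855) or with quantile normalisation (0.114), nor Gria3 without WT day 0 replicate 2 (0.0506). In Fyn-KO, Cacnb3 was not called on leaving out any 1 of 9 of the 12 libraries (limma, adjusted p = 0.0549 to 0.177) or without the filter on low values (0.0809). Gria4 was not called without Fyn-KO day 0 replicate 1 or 2 or day 4 replicate 2 or 3 (limma, adjusted p = 0.0662 to 0.0780) or with quantile normalisation (0.0507), nor Kcnh6 without day 0 replicate 1 or 2 or day 4 replicate 3 (0.0624 to 0.0690). Grik5 lost its Fyn-KO call without day 0 replicate 2 or day 4 replicate 3 (limma, adjusted p = 0.0514 and 0.0585), and Cacna2d1 without day 0 replicate 2 (0.0532). None of the 9 rises called in 1 line alone passed the test of a difference between the lines in the day 4 change.

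Among the E14 falls, Grik3 was the one shared by both lines. It went from 9.31, 10.8 and 14.1 to 2.93, 2.55 and 4.09 FPKM in WT (−1.56 ± 0.40, adjusted p = 0.0146) and from 16.6, 16.8 and 4.09 to 2.14, 2.14 and 2.45 FPKM in Fyn-KO (−1.85 ± 0.40, adjusted p = 0.00870). Its WT call was lost without WT day 0 replicate 3 (−1.41; limma, adjusted p = 0.0569). In the first R1 series Grik3 had its lowest level at 34 h, 1.59 FPKM, and was at 9.58 FPKM at 92 h. Scn3a fell in WT from 0.997, 2.19 and 2.46 to 0.389, 0.246 and 0.244 FPKM (−1.12 ± 0.34, adjusted p = 0.0301). Cacnb1 (−0.69 ± 0.22) and Grin1 (−2.19 ± 0.64, adjusted p = 0.0269) fell too, though their groups overlapped: Grin1 was at 0.754, 11.5 and 18.2 FPKM in WT day 0 and at 0.646, 0.504 and 0.780 FPKM at day 4. Replicate 1 of WT day 0 thus sat with the day 4 libraries for this gene. The calls of Scn3a and Grin1 were both lost on leaving out any 1 WT library other than day 0 replicate 1 (limma, adjusted p = 0.0565 to 0.110 and 0.0583 to 0.108), and that of Cacnb1 on leaving out any of 4 of the WT libraries (0.0840 to 0.149) or Fyn-KO day 0 replicate 1 (0.0515). Without a filter on low values Grin1 and Cacnb1 were not called either (limma, adjusted p = 0.0524 and 0.0633). Many receptor and channel subunits of neurons were below 1 FPKM in every E14 library and were not tested, among them Gria1, Gria2, Grik2, Grin2b, Grm5, Gabra2, Glra2, Scn1a, Kcnq3, Kcnj6 and Cacna1c. The highest level of Gria2 was 0.0295 FPKM, in WT day 4 replicate 3. Cacna1g and Glrb passed 1 FPKM only in WT day 4 replicate 1, at 5.83 and 1.38 FPKM, the library in which the progenitor markers were highest.

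These calls depended on single libraries and on the filter on low values. Without that filter the 14 WT calls became 24 and the 14 Fyn-KO calls 21. Leaving out WT day 0 replicate 2 or 3 or WT day 4 replicate 1 lowered the 14 WT calls to 8, 9 and 9. Leaving out Fyn-KO day 0 replicate 2 or Fyn-KO day 4 replicate 3 lowered the 14 Fyn-KO calls to 8 and 9, while leaving out Fyn-KO day 0 replicate 3, whose 28 members at 1 FPKM stood apart from 19 and 19, raised them to 24 (22 higher, 2 lower), the 14 included. Kcnk1, Kcnj3, Cacng7, Gabra3 and Cacna1b kept their calls in both lines in every one of these fits. Small nucleolar RNA genes took 41.5% and 23.1% of the summed FPKM in WT day 4 replicates 1 and 2 and 28.8% in Fyn-KO day 4 replicate 2, against at most 4.99% elsewhere, and progenitor markers summed to 139 FPKM in WT day 4 replicate 1 against 14.8 and 36.6 FPKM in the others. The part of either in the member values was not tested.

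**Figure D4:**
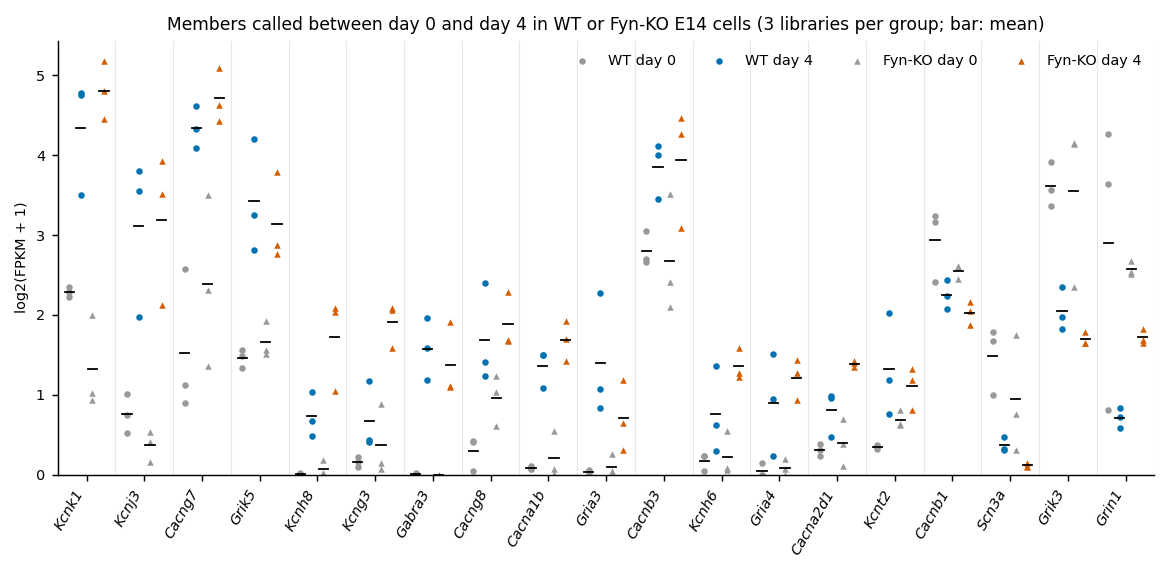
Level as log2(FPKM + 1) on the y axis of 19 members called in either line, in WT day 0, WT day 4, Fyn-KO day 0 and Fyn-KO day 4 cells, with 1 point per library and a bar at the mean of 3. Kcnk1, Kcnj3 and Cacng7 are higher at day 4 in both lines without overlap, and Grik3 is lower.

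Loss of Fyn left no member called different at either day. At day 4, 0 of the 42 members passed the limma test with Benjamini-Hochberg adjustment, 3 had an unadjusted p under 0.05, and 9 of all genes (0.0734%) were called, 0.00816% higher and 0.0653% lower. Kcng3, a silent potassium channel subunit, was at 1.99, 3.16 and 3.24 FPKM in Fyn-KO day 4 against 0.329, 0.347 and 1.25 FPKM in WT, a log2 difference of 1.24 ± 0.29 (limma, adjusted p = 0.119). Kcnh8 was at 3.26, 3.09 and 1.07 against 0.401, 0.589 and 1.05 FPKM (0.99 ± 0.28, adjusted p = 0.191), and Cacna2d1 at 1.54, 1.63 and 1.69 against 0.946, 0.388 and 0.986 FPKM (0.58 ± 0.22, adjusted p = 0.318). All 3 pairs of groups were separated, as were 6 members upward and 2 downward in all (6.54% and 9.99% of all genes). At day 0, 0 members and 21 genes (0.171%; 0.0408% higher and 0.131% lower) were called, and 2 members had an unadjusted p under 0.05, among them Kcnk1 (−0.97 ± 0.36; limma, adjusted p = 0.248). There the groups were separated for 3 members upward and 2 downward (10.5% and 10.9% of all genes). The 7 neuron markers summed to 121 to 207 FPKM in Fyn-KO against 24.4 to 86.6 FPKM in WT at day 0. At day 4 they summed to 49.7 to 66.1 against 57.1 to 106 FPKM. Progenitor markers at day 4 summed to 4.87 to 20.6 FPKM in Fyn-KO against 14.8 to 139 FPKM in WT. Mesoderm and endoderm markers at day 4 summed to 1.19 to 7.29 against 3.71 to 32.0 FPKM. The part of these markers in the member values was not tested.

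The test of whether the day 4 change itself differed between the lines called 0 members and 0 genes, with 3 members at an unadjusted p under 0.05. These were Kcnk1 (1.44 log2 units more in Fyn-KO), Kcng3 (1.03) and Kcnh8 (0.93), each with an adjusted p of 0.997. Without WT day 0 replicate 1, Grin1 was called at day 0 (−1.38, adjusted p = 0.0160) and in this test (2.38, adjusted p = 0.0184). A difference that misses the threshold does not show that they are alike.

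In single cells, few members were seen at a time. A member was called detected above 0.5 RPKM (reads per kilobase of transcript and library size). The median number detected per cell was 5, 4, 3, 3.5, 5, 5, 8.5 and 5 of 33 at 0, 9, 38, 60, 84, 106, 144 and 216 h, while the median number of all genes above this level, which the quantile normalisation holds nearly equal between cells, was 5148 to 5192. Kcnk1 had the clearest course: it was detected in 4, 5, 7, 8, 8, 3, 5 and 1 of 8 cells at these hours, with medians of 0.556, 1.68, 13.7, 51.1, 1.94, 0.188, 2.38 and 0.00477 RPKM. The exact 95% interval of the share was 63.1% to 100% at 60 and 84 h and 0.316% to 52.7% at 216 h, for counting error only. The median was highest at 60 h, the hour of the peak in the parallel populations. At 84 h it was close to those of 9 and 144 h although all 8 cells passed the cutoff, and the mean there was 29.7 RPKM with a highest cell of 134 RPKM.

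Some members that rose in populations were detected in more cells late in the course than early, though not at every hour. Cacna1g was detected in 0, 0, 1, 1, 2, 0, 2 and 6 of 8 cells and Grik5 in 1, 0, 0, 2, 0, 0, 5 and 3. Grm4 was detected in 5 cells at 144 h and 0 at 216 h, which allows a share of up to 36.9%. Kcnh2 was detected in 3, 5, 1, 0, 3, 5, 7 and 5 cells. Counting the 16 cells at 0 and 9 h against the 16 at 144 and 216 h, the largest changes were Cacna1g (0 to 8), Grik5 (1 to 8), Grm4 (1 to 5), Kcnh2 (8 to 12), Cacna1h (3 to 6), Kcnab2 (1 to 4), Kcnk2 (0 to 3), Kcns3 (1 to 4) and Kcnk1 (9 to 6). Kcns3, whose fall was not called in the parallel populations of these hours, was detected in 4 of 8 cells at 106 and at 144 h and in 0 at 216 h, and Kcnk5, falling in populations, was detected in 5 of 8 cells at 144 h and 1 at 216 h. Cacnb3 was detected in 3 to 7 of 8 cells at every hour. Cells of 1 hour share 1 culture as far as is stated, so no test across cells was made. In 3 cells far more members were detected than in the others of their hour (19 at 0 h, 13 at 60 h and 22 at 144 h). Without them, Kcnk1 was detected in 3 of the 7 cells left at 0 h, 7 of 7 at 60 h and 4 of 7 at 144 h, Grik5 in 0 at 0 h and 4 at 144 h, and Grm4 in 5 at 144 h.

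**Figure D5:**
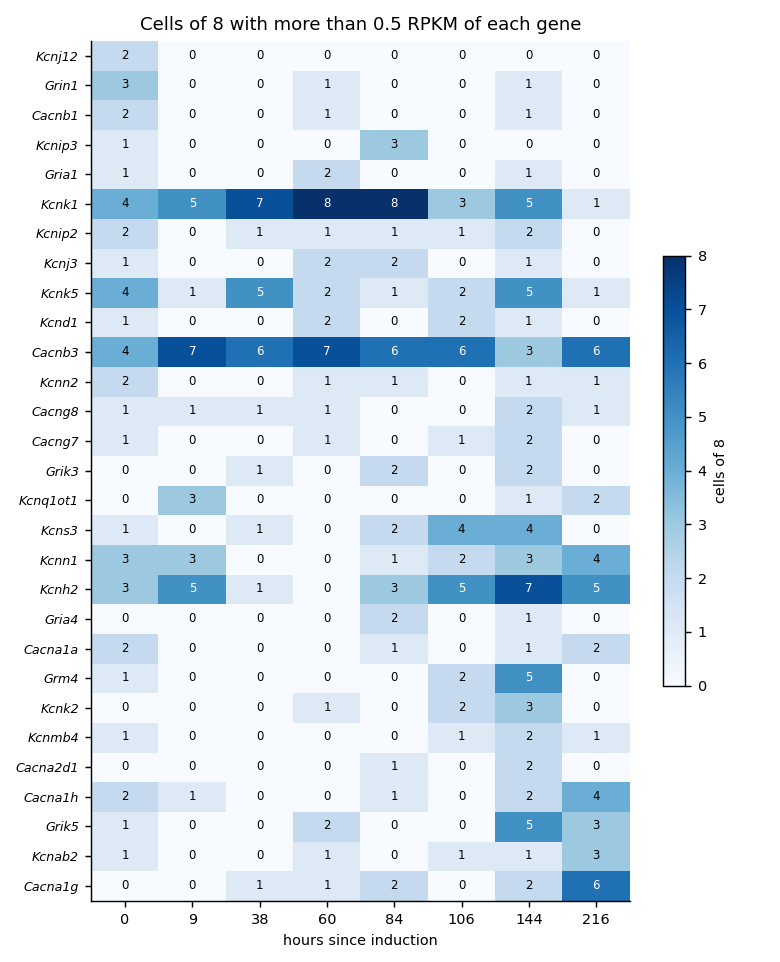
Number of single SFEB cells, of 8, in which each of 29 members was detected above 0.5 RPKM, by hour of neural induction, with the members as rows. Kcnk1 fills 8 of 8 cells at 60 and 84 h, and Cacna1g reaches 6 of 8 at 216 h.

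Most genes on 4 lists of partners of these channels rose as well, where 35.8% of all genes rose in SFEB and 36.1% in adherent culture. Of 14 genes of presynaptic release, 12 were tested in SFEB and all 12 rose (median slope 1.06 log2 units per 100 h against 0.05 for all genes); of 13 tested in adherent culture 12 rose (1.03 against 0.09). Snap25, a SNARE protein of vesicle fusion, reached 8.34 FPKM at 142 h and 25.2 FPKM at 216 h in the SFEB series. Of 16 postsynaptic scaffold and adhesion genes, 14 of 15 rose in SFEB and 12 of 13 in adherent culture (medians 0.97 and 0.81). Dlg4 (PSD-95), the scaffold of glutamate synapses, went from 9.11 through 2.28 FPKM at 22 h to 16.3 FPKM at 142 h, and Gphn (gephyrin), the scaffold of inhibitory synapses, from 2.90 to 11.1 FPKM. Of 12 genes of transmitter synthesis and transport, 8 of 11 rose and Glul fell in SFEB, and 7 of 10 rose and Slc17a7 fell in adherent culture (medians 0.93 and 0.74). Slc17a6, the vesicular glutamate transporter VGLUT2, reached 7.90 FPKM at 142 h. All 7 and 6 tested of 11 channel partners rose (medians 1.22 and 1.18), among them Ank3, which clusters sodium channels at the axon's start, from 4.08 to 13.2 FPKM.

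Of 8 genes for REST and its corepressors, 3 rose and 3 fell in each protocol (medians −0.01 and 0.11), where 35.8% and 36.1% of all genes rose and 27.3% and 24% fell. Rest itself fell by 1.09 ± 0.13 and 0.99 ± 0.17 log2 units per 100 h, from 31.4 FPKM at 0 h and 43.9 FPKM at 22 h to 8.54 FPKM at 142 h in the first series, and from 25 to 7.38 FPKM in adherent culture. Sin3a also fell in both, and Rcor1 and Hdac2 rose in both. In E14 cells at day 4, where 15.5% of all genes rose in WT and 11.8% in Fyn-KO, the lists gave 4 rises among 8 presynaptic genes tested, 4 of 8 postsynaptic, 3 of 4 transmitter, 1 of 5 partner and 0 of 8 REST genes in WT (medians 0.68, 0.66, 1.05, 0.65 and −0.10), with Rest the only fall (−0.91, adjusted p = 0.0213). In Fyn-KO the rises were 3, 5, 2, 0 and 0, with 1 fall in the transmitter list (medians 0.56, 0.81, 0.29, 0.18 and −0.24). No gene of these lists was called different between the lines at either day.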

How the data were processed

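RNA-seq was measured in 113 samples: 14 first and 8 parallel SFEB populations, 15 adherent populations, 64 single cells and 12 E14 libraries. Population and E14 values are FPKM as deposited, made by the authors with TopHat2 2.0.8b and Cufflinks 2.1.1 on mm9 (R1) or mm10 (E14) by the submitters' notes. The SFEB populations had also been batch-adjusted (ComBat), which left 1256 values below 0, here set to 0. Single-cell values were deposited by the authors as quantile-normalised log10(RPKM + 1). No counts were given, so the depth of each library is unknown and cannot be weighed. The paper states only a minimum number of reads, where it describes the single-cell and parallel population libraries. The intervals on shares of cells are exact (Clopper-Pearson, 95%).

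Tests used limma 3.58.1 in R 4.3.3 on log2(FPKM + 1) over all genes of a table, with a trended prior and Benjamini-Hochberg adjustment, called below 0.05. This scale understates the change of low genes. E14 genes had at least 1 FPKM in 3 of 12 libraries, all 4 groups sharing 1 spread; trend genes had at least 1 FPKM in 2 samples. Slopes are per 100 h. Tables were normalised separately and are not tested against each other. The fit was checked on simulated data. Summaries used python 3.11.15, pandas 2.3.3, numpy 2.4.6, scipy 1.17.1 and matplotlib 3.10.9.

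The members, lists and tests were chosen with earlier results of these data known. The members described singly were the 8 highest by mean in each series, the calls of each E14 contrast (up to 10 each way), the 10 largest called slopes each way, the highest of each family in each last sample, the 10 largest changes in cells detected, and a fixed set of well-studied genes. Other members were named after their values were seen, and a few are counted but not reported singly here. Same-numbered E14 libraries deviated together for WT days 0 and 4 (residual correlations 0.199, 0.220 and 0.224) and for WT and Fyn-KO at day 4 (0.136, 0.258 and 0.240), which pairs them by the data and not by the labels. They did not for the Fyn-KO days (0.0239, 0.0899 and 0.00112) or for the lines at day 0 (0.0628, 0.339 and −0.115). Alternatives changed the pseudocount, filter, scaling, replicate block, samples and onset threshold.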

Additional observations from a re-analysis of the deposited data

Results flagged for a closer look

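In 3 of the 8 groups of single cells, 1 cell stood apart from the others of its hour in the number of the 33 members detected. The cell numbered 6 at 0 h had 19, where the mean of the other 7 was 4.43. The cell numbered 5 at 60 h had 13, against a mean of 3.71 in the others, and the cell numbered 8 at 144 h had 22, against 7.86. In each case the gap to the nearest cell was over 0.526 of the group's range, a limit that chance passes in about 1 of 20 groups. Each of these cells also had the fewest genes above 0.5 RPKM of its hour, with 5055, 5095 and 4914 at 0, 60 and 144 h. The other cells had 5097 to 5166, 5138 to 5168 and 5111 to 5214. These 3 cells each had 4 of the 5 measured neuron markers, where the other cells of their hours had 1 to 3. They had 4, 2 and 2 of the 5 embryonic stem markers at 0, 60 and 144 h, against 4 to 5, 3 to 4 and 3 to 4 in the others, and each had 1 of the 2 astrocyte and oligodendrocyte markers, against 0, 0 to 1 and 0 to 1. Neural progenitor and fibroblast markers lay within the range of the others. The part of these markers or of the lower gene number in the number of members detected was not tested.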

How the results depend on the processing

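The counts of members with a trend kept within 1.5 times of their main value under every alternative tried: 48 to 76 against 64 in SFEB and 46 to 66 against 53 in adherent culture. The same held for the number with a later onset (35 to 40 in SFEB and 34 to 58 in adherent culture). Of single slopes, Cacna2d1 and Scn3b turned to −0.12 and −0.0927 with the first series alone, Kcng1 to −0.0289 with the parallel series alone, and Kcnk1 to −1.28 without the samples before 20 h (chosen after seeing the data), where 10 SFEB and 7 adherent calls were lost. Without a filter on low values, the day 4 calls went to 24 in WT, and 1 member was called between the lines at day 4. Leaving out 1 library gave 8 to 17 WT calls, 8 to 24 Fyn-KO calls, 0 to 0 between the lines at day 4, and 0 to 1 both at day 0 and for the difference in day 4 change. With the replicate block there were 17 WT and 18 Fyn-KO calls, the 14 and 14 main calls among them, and 0 in the other comparisons, so the pairing ended no call. Counting any value above 0 as detected, the mean number of members per cell was 17.9 at 0 h, 8.88 at 9 h, 10.1 at 38 h, 18.6 at 60 h, 14.5 at 84 h, 9.25 at 106 h, 14.5 at 144 h and 11.1 at 216 h, so the highest mean was at 60 h in place of 144 h. The cause of these changes was not tested. One library per time point, 3 per E14 group, unknown depth of each library and batch-adjusted floors limit what low levels can show.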
